A study of Homo sapiens with 6 samples.

Results

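The comparison of 10 h of Nutlin-3a with vehicle rests on 4 of the 6 RNA-seq libraries of the series, 2 of Nut 10h and 2 of Nut 0h, and covers every gene of the count table. Of the 57905 genes listed, 16565 had enough reads to be tested. The cells were HCT116, a human colorectal carcinoma line with wild-type p53. Nut 10h cells received 10 µM Nutlin-3a dissolved in DMSO for 10 h, and Nut 0h cells received DMSO alone. Each group had 2 replicates, labelled as biological, of the same line.

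p53 is a transcription factor that in resting cells is bound and degraded through MDM2. Nutlin-3a occupies the p53 pocket of MDM2, so p53 accumulates without DNA damage. p53 binds an element of paired half-sites and switches on genes of cell cycle arrest, cell death, DNA repair and metabolism. One of them encodes the kinase inhibitor p21 (CDKN1A), which keeps the pocket proteins active. Pocket proteins in turn hold cell cycle genes silent, through E2F sites for genes of DNA synthesis and through the cell cycle genes homology region (CHR) for genes of mitosis.

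The reads assigned to genes summed to between 34972083 and 35473485 in the 4 libraries. Across the tested genes, log2 values of the replicates correlated with an r of 0.997 within each group, against 0.982 to 0.984 between groups. These correlations are across genes, which are not independent samples. Epithelial keratins were abundant, with 97620 to 127504 reads of KRT8 in each library, whereas CDX1 had none and VIL1 and CEACAM5 had at most 12. The immune markers CD3D and MS4A1, the endothelial marker CDH5 and the fibroblast markers DCN, LUM and POSTN had no reads in any of the 4 libraries. Other members of these lists had reads. Per library, the immune markers summed to 14 to 104 reads and the endothelial markers to 198 to 484. The fibroblast and muscle markers summed to 1552 to 2168. Whether reads were counted by strand is not given in the sources used here. Therefore the values of overlapping genes are uncertain, and 14 of the 15 largest rises and 10 of the 15 largest falls described here overlap another annotated gene.

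At Nut 10h, 2340 genes were upregulated and 2470 downregulated against Nut 0h (edgeR's quasi-likelihood test, adjusted p of at most 0.05). This was 14.1% and 14.9% of the tested genes. Both directions had similar counts but not similar sizes. A change of at least 2-fold was found for 620 upregulated genes (3.74% of those tested) and 515 downregulated genes (3.11%). At least 4-fold changes numbered 176 upward and 67 downward, and at least 8-fold changes 62 upward and 9 downward. The median fold change of the called genes was 1.53 upward and 1.46 downward. Fold changes are relative to the library's composition after TMM scaling, under which the median log2 fold change of all tested genes was 0.000174.

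**Figure D1:**
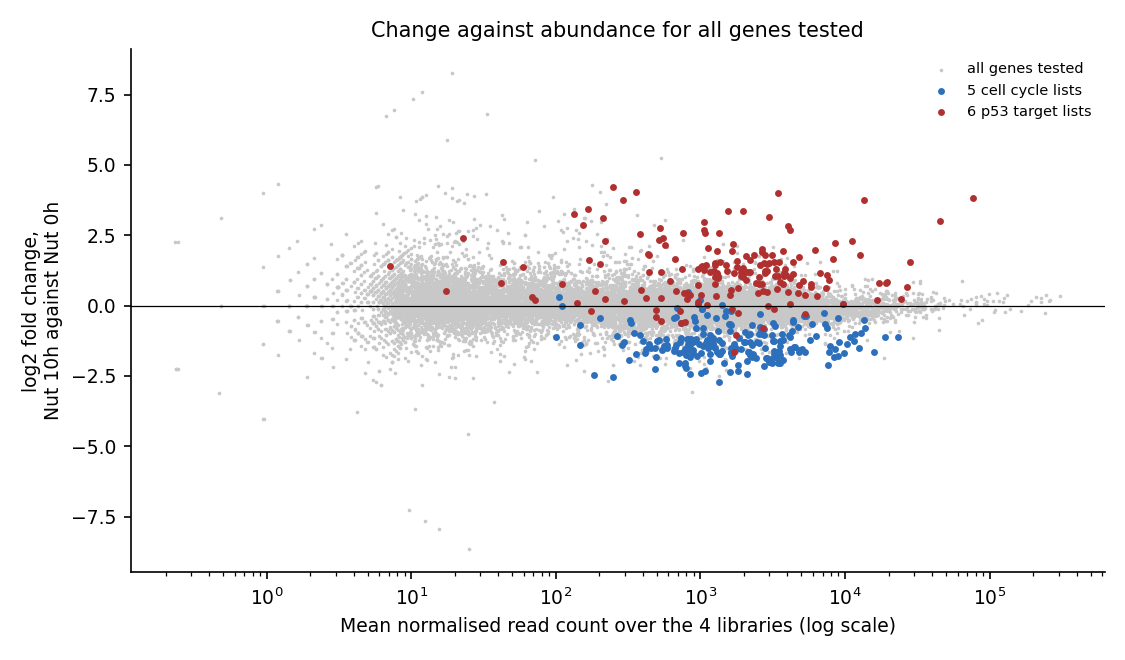
Each point is a tested gene, with the mean normalised read count of the 4 libraries on the x axis (log scale) and the log2 fold change at Nut 10h against Nut 0h on the y axis. Members of 6 lists of p53 targets (red, 177 genes, median 1.16) lie mostly above 0, and members of 5 lists of cell cycle genes (blue, 215 genes, median -1.35) lie mostly below it.

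p53 target genes were examined first. The 6 lists of reported p53 targets hold 177 tested genes. Of these, 144 were upregulated, beside 14.1% of all tested genes, 8 were downregulated, beside 14.9%, and 25 were not called. Their median log2 fold change was 1.16. These genes, like those of every list below, were chosen with earlier results of these data known. The shares therefore describe the lists and are no independent test. In reads, these genes took 1.12% and 1.11% of each library with vehicle and 2.90% and 2.83% with Nutlin-3a. CDKN1A alone rose from 0.0310% and 0.0281% of all reads to 0.430% and 0.429%.

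MDM2 (chromosome 12, 69201957 to 69239324 on GRCh37), the ubiquitin ligase that degrades p53 and the protein that Nutlin-3a binds, had 1688 and 2083 normalised counts with vehicle and 22633 and 27946 with Nutlin-3a. Both treated libraries lay above both vehicle libraries, and the rise was 13.4-fold (log2 fold change 3.75, standard error [SE] 0.13, adjusted p = 4.51e-10, edgeR). MDM2 overlaps the gene CPM.

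CDKN1A (chromosome 6, 36644237 to 36655114), the p21 inhibitor of cyclin-dependent kinases, had 10629 and 9286 counts with vehicle and 145531 and 139682 with Nutlin-3a. The groups did not overlap, and the rise was 14.3-fold (log2 fold change 3.84, SE 0.11, adjusted p = 1.03e-10, edgeR). Per kilobase of its longest transcript, CDKN1A went from rank 418 to rank 22 among the tested genes. GDF15, a secreted stress cytokine, went from rank 231 to rank 29 on the same scale, with 10490.4 and 9528 counts with vehicle and 88666 and 72539 with Nutlin-3a (log2 fold change 3.01). GAPDH, a glycolytic enzyme often used as a reference, held rank 10 at Nut 0h and rank 11 at Nut 10h and was not called (log2 fold change 0.02, adjusted p = 0.9, edgeR).

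**Figure D2:**
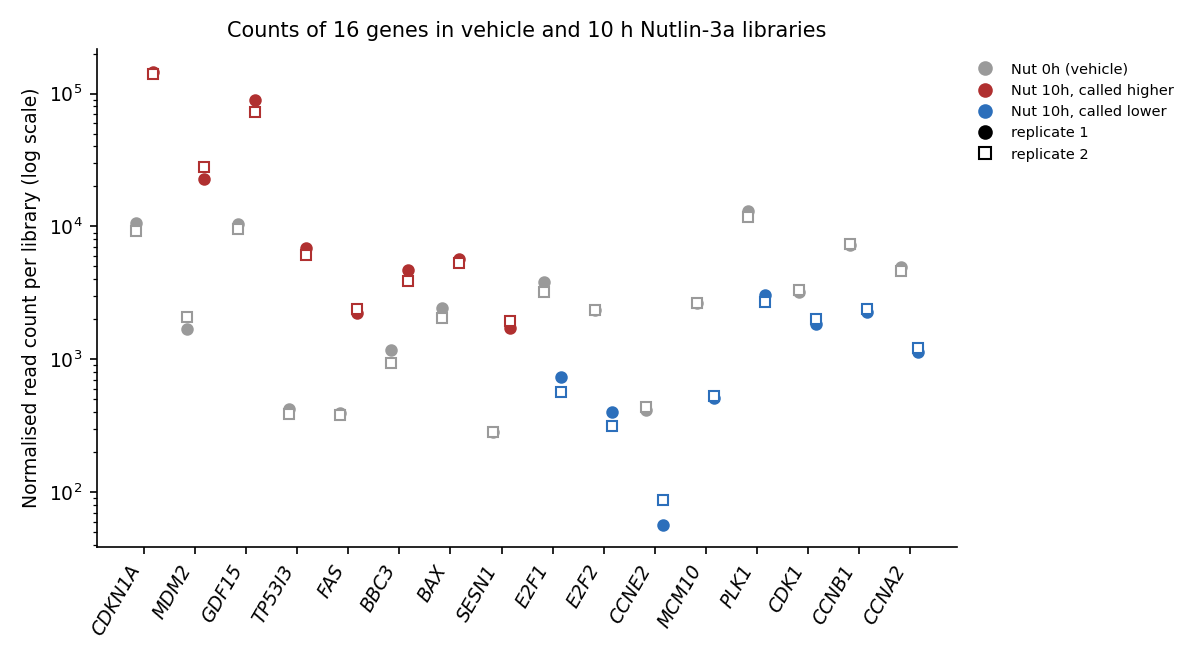
Normalised read counts (y axis, log scale) of 16 genes in each of the 4 libraries, with Nut 0h in grey and Nut 10h in colour, and replicate 1 as filled circles and replicate 2 as open squares. In the 8 upregulated genes (red) both Nut 10h libraries lie above both Nut 0h libraries, and in the 8 downregulated genes (blue) both lie below them.

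Of 12 tested feedback regulators of p53, 6 were upregulated, 2 downregulated (16.7%, near the 14.9% of all tested genes) and 4 not called, with a median log2 fold change of 0.37. After MDM2, the largest rise was that of PPM1D, the WIP1 phosphatase that dephosphorylates p53, from 1393 and 1458 to 4009 and 4127 counts (log2 fold change 1.51). TRIAP1 rose by 1.24 and the cyclin CCNG1 by 1.09, each with Nut 10h libraries above Nut 0h libraries. MDM4, the MDM2 relative that masks the transactivation domain of p53, rose by 0.55 (adjusted p = 0.00923, edgeR), but without Nut 0h replicate 1 its log2 fold change was 0.34 (adjusted p = 0.0799). TP73, the p53 family member encoding p73, fell from 2766 and 2402 to 958 and 686 counts (log2 fold change -1.65, adjusted p = 5.33e-07, edgeR). TP73 overlaps its antisense genes and WRAP73. The other downregulated regulator, USP7, a deubiquitinase of MDM2 and p53, had a log2 fold change of -0.28 and lost its call in 4 alternative fits, among them those without Nut 0h replicate 2 and Nut 10h replicate 1.

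Targets of growth arrest included 17 upregulated genes among 19 tested, with 1 downregulated and a median of 1.43. PRDM1, a transcriptional repressor, had 25.1 and 25.4 counts with vehicle and 239.8 and 242 with Nutlin-3a (log2 fold change 3.25). BTG2, an antiproliferative protein, rose from 1039.8 and 955 to 6892 and 7226 counts (log2 fold change 2.82). SESN1, a sestrin that restrains mTORC1, rose from 285 and 285 to 1712 and 1933, and the RNA-binding protein gene ZMAT3 from 531 and 673 to 2503 and 2962. None of these groups overlapped. The exception of the list was GADD45B, a stress protein of the GADD45 family, which fell from 1038 and 841 to 668 and 572 counts (log2 fold change -0.60, adjusted p = 0.00195, edgeR).

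Targets of cell death included 20 upregulated and 2 downregulated genes of 24 tested, with a median of 1.04. TP53I3, the PIG3 quinone oxidoreductase, had 423 and 386 counts with vehicle and 6929.9 and 6078 with Nutlin-3a, a 16.1-fold rise (log2 fold change 4.01, SE 0.11, adjusted p = 1.03e-10, edgeR). TP53INP1, which binds p53 and acts in autophagy, rose from 254 and 295 to 2547 and 3125 counts. FAS, the death receptor of FAS ligand, went from 392 and 383 to 2221 and 2384 counts (log2 fold change 2.57), and TNFRSF10C, a TRAIL decoy receptor, from 148 and 125 to 937 and 903 (log2 fold change 2.75).

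Of the BCL2 family, BBC3 (PUMA) rose from 1176 and 934 to 4698 and 3891 counts (log2 fold change 2.02, adjusted p = 2.97e-08, edgeR) and BAX, the pore-forming effector, from 2431 and 2058 to 5664 and 5301 (log2 fold change 1.29, adjusted p = 5.33e-07, edgeR). The Nut 10h libraries of both genes lay above the Nut 0h libraries. The downregulated genes of the cell death list were SIVA1, an adaptor of death receptor signalling (log2 fold change -0.80, adjusted p = 0.000186, edgeR) and the BH3-only gene BCL2L11, which encodes BIM (-0.41, adjusted p = 0.0156, edgeR). The call of BCL2L11 was lost when Nut 0h replicate 2 was left out (-0.33, adjusted p = 0.0862) and when Nut 10h replicate 1 was (-0.33, adjusted p = 0.0685).

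DNA repair targets included 6 upregulated and 2 downregulated genes of 12 tested, with a median of 0.69. The share downregulated, 16.7%, was near the 14.9% of all tested genes, whereas 14.1% of all tested genes were upregulated. The nucleotide excision repair sensors DDB2 and XPC rose from 1660.1 and 1599 to 5041 and 4609 counts and from 1571 and 1540.1 to 4486 and 4314 counts. RRM2B, the p53-inducible subunit of ribonucleotide reductase, rose from 1480.4 and 1626 to 5247 and 6622 (log2 fold change 1.93), and POLH, a translesion polymerase, from 834 and 969 to 2700.2 and 2647 (1.57). PCNA, the replication clamp, which stands both in this list and among the replication genes and was picked after its values were seen, was not called (log2 fold change 0.04).

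Metabolic, redox and autophagy targets counted 25 upregulated and 1 downregulated gene of 31, with a median of 1.04. FDXR, the ferredoxin reductase of mitochondrial steroid and iron-sulphur chemistry, rose from 3989 and 3527 to 20496 and 16646 counts (log2 fold change 2.30). ACER2, a ceramidase, rose from 97.6 and 125 to 601 and 704, and DRAM1, a lysosomal autophagy protein, from 718 and 660.2 to 2521 and 2755. ABCA12, a lipid transporter of the epidermis, was nearly silent at Nut 0h with 29 and 21.6 counts and had 432 and 509.9 at Nut 10h (log2 fold change 4.22). The single downregulated gene, SCO2, a copper chaperone of cytochrome c oxidase, reached -0.54 on the log2 scale (adjusted p = 0.014, edgeR). Its call was lost when Nut 0h replicate 1 was left out (-0.37, adjusted p = 0.0996) and when Nut 10h replicate 2 was (-0.32, adjusted p = 0.114).

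Other reported p53 targets were upregulated in 70 of 79 tested cases, with none downregulated and a median of 1.24, and 1 was downregulated on leaving out Nut 0h replicate 2 or Nut 10h replicate 1. INPP5D, the SHIP1 inositol phosphatase, rose from 48.3 and 33.8 to 729 and 624 counts (log2 fold change 4.04). The epithelial transcription factor GRHL3 rose from 27.1 and 29.1 to 333 and 277 and the sulphatase SULF2 from 377 and 327 to 3749 and 3398. SERPINB5 (maspin) rose from 600.1 and 618 to 5017 and 5689 counts (log2 fold change 3.14).

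The 15 largest rises and 15 largest falls were taken among called genes with a mean of at least 100 normalised counts and groups that did not overlap, so their separation was fixed by the choice. Among the rises, 6 genes belonged to none of the lists. The largest was SORCS2 (chromosome 4, 7194265 to 7744563), a sorting receptor of neurotrophin signalling, with 19.3 and 34.7 counts with vehicle and 1087 and 1003 with Nutlin-3a, a 38.3-fold rise (log2 fold change 5.26, SE 0.20, adjusted p = 7.63e-10, edgeR). HMCN2, a hemicentin of the extracellular matrix, rose from 18.4 and 16 to 379 and 293 counts. PVRL4 (nectin 4), a cell adhesion protein, rose from 20.3 and 25.4 to 376 and 384, and CEACAM1, another, from 25.1 and 20.7 to 242 and 250.3. The others were DRAXIN, an axon guidance factor that overlaps MAD2L2 (log2 fold change 3.63), and SYT8, a synaptotagmin (3.25, with 29 and 14.1 counts at Nut 0h).

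Sequences around the transcription start were set beside these changes. RefSeq promoters (GRCh38.p14, 250 bases before to 50 after the start) were held for 11364 of the 16565 tested genes, and for 149 genes of the p53 lists. The element searched was a pair of p53 consensus half-sites with 0 or 1 base between them, at most 3 mismatches and the C and G of both cores kept. It was found in 7.39% of 528 promoters of genes upregulated at least 2-fold, 2.93% of those upregulated less, 2.11% of those not called, 1.86% of those downregulated at least 2-fold and 2.38% of all 35116 promoters of the table. With at most 2 mismatches, which was chosen after seeing the data, the shares were 3.22% for genes upregulated at least 2-fold and 0.533% for all promoters. Several promoters can belong to 1 gene, and the match is a description of letters, not of binding.

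The following 5 promoters of upregulated targets are shown for their elements, with the half-sites in capitals and 5′ to 3′ along the gene. They belong to genes of DNA repair, feedback, death receptor signalling, redox metabolism and growth arrest described above.
DDB2 (chr11:47214959-47215003, plus strand): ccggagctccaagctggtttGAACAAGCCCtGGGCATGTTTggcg
MDM2 (chr12:68808903-68808962, plus strand): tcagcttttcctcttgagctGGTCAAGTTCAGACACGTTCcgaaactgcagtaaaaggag
FAS (chr10:88991289-88991348, plus strand): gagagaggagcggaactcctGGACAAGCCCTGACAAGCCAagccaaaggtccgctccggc
FDXR (chr17:74872976-74873035, minus strand): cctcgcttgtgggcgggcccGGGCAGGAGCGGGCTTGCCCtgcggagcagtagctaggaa
SESN1 (chr6:109008998-109009057, minus strand): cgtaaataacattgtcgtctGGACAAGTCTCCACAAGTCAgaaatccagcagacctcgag
DDB2 had an element with 0 mismatches, which began 5 bases after the start and had 1 base between its half-sites. MDM2 and FAS had 2 mismatches, and FDXR and SESN1 had 3. Among these 5 genes DDB2 had the smallest log2 fold change (1.57) and MDM2 the largest (3.75). CDKN1A, TP53I3 and BBC3 had no element of this kind within their windows.

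**Figure D3:**
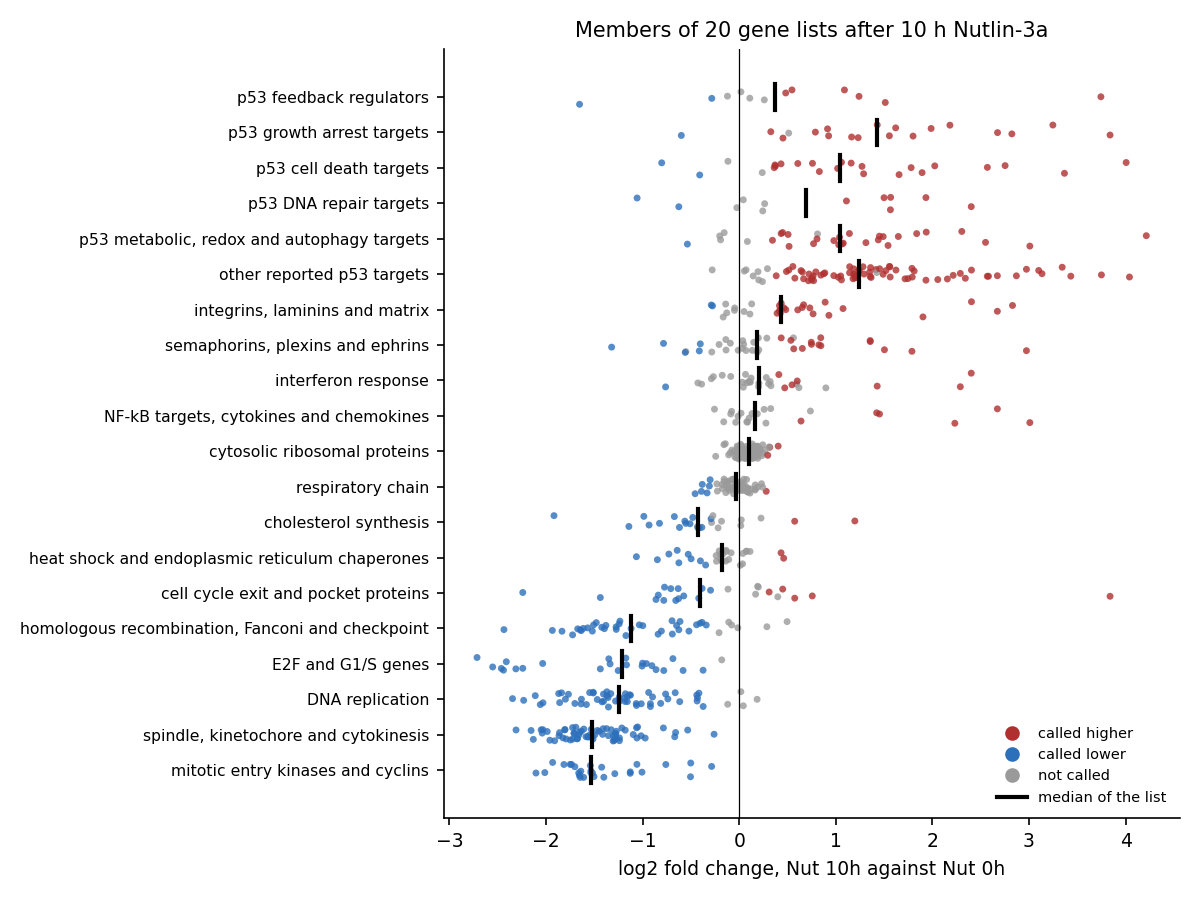
Log2 fold changes at Nut 10h against Nut 0h (x axis) of the tested members of 20 gene lists (y axis), coloured by call, with the median of each list as a black bar. The p53 lists have medians from 0.37 to 1.43, the 5 cell cycle lists at the bottom have medians from -1.54 to -1.12 and no upregulated member, and the medians of the other lists lie between -0.42 and 0.43.

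Genes of the cell cycle moved the other way. The 5 lists of mitosis, replication, the G1/S transition and replication-linked repair hold 215 tested genes, of which 204 were downregulated (beside 14.9% of all tested genes), 11 were not called and none was upregulated. Their median log2 fold change was -1.35. Of the 5 lists, the repair list alone had a member called upward under any alternative, namely 1 gene in 7 of the 12 alternative fits, among them those without Nut 0h replicate 2 and Nut 10h replicate 1. These genes took 2.54% and 2.52% of the reads with vehicle and 1.12% and 1.10% with Nutlin-3a. In bulk RNA, fewer cells in a cycle phase and less RNA per cell cannot be told apart.

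All 28 kinases, cyclins and regulators of mitotic entry were downregulated, 24 of them at least 2-fold, with a median of -1.54. PLK1, the polo-like kinase of mitotic entry, fell from 12977 and 11717 to 3039 and 2704 counts (log2 fold change -2.10, SE 0.11, adjusted p = 5.79e-09, edgeR). Cyclin A (CCNA2) fell from 4921 and 4589 to 1139 and 1217 counts and cyclin B1 (CCNB1) from 7204 and 7425 to 2286 and 2409. CDK1, the kinase partner of cyclin B, fell less, from 3214 and 3299.9 to 1839.8 and 2007 (log2 fold change -0.76, adjusted p = 2.42e-05, edgeR). In each of these genes both Nut 10h libraries lay below both Nut 0h libraries.

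All 65 genes of the spindle, kinetochore and cytokinesis list were downregulated as well, 59 of them at least 2-fold, with a median of -1.52. HJURP, the chaperone that loads the centromeric histone CENPA, fell from 3234 and 2837 to 622 and 602 counts, and CENPA itself from 1237 and 1066 to 312 and 244. The kinesin KIF18B fell from 4642 and 4377 to 1121 and 937 counts (log2 fold change -2.13). PIF1, which stands in this list but encodes a DNA helicase, fell from 1295 and 1272 to 317 and 259.6 (log2 fold change -2.15). CKAP2L, a spindle pole protein, fell from 1233 and 1294 to 306 and 308. The smallest change of the list, chosen after its values were seen, was that of the checkpoint protein BUB3 (log2 fold change -0.26).

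The letters TTTGAA of the CHR (searched on both strands) were found in 23.1% of 484 promoters of genes downregulated at least 2-fold, 10.3% of those downregulated less, 10.0% of those not called, 12.3% of those upregulated at least 2-fold and 15.2% of all promoters of the table. Position separated the classes further. Within 60 bases before to 20 after the start, a window chosen after seeing the data, the shares were 12.2%, 2.73%, 2.19%, 2.65% and 3.74% in the same order. By list, TTTGAA was found in the whole window in 61.9% of 63 promoters for the spindle, kinetochore and cytokinesis genes, 17 of 34 for the mitotic entry genes, 16% of 50 for the homologous recombination, Fanconi and checkpoint genes, 9.38% of 32 for the E2F and G1/S genes and 4.92% of 61 for the replication genes. In the narrower window the share was 41.3% of 63 promoters for the spindle, kinetochore and cytokinesis genes and 29.4% of 34 for the mitotic entry genes. It was 4% of 50 for the homologous recombination, Fanconi and checkpoint genes and 3.28% of 61 for the replication genes, and none of the 32 promoters of the E2F and G1/S genes held it.

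**Figure D4:**
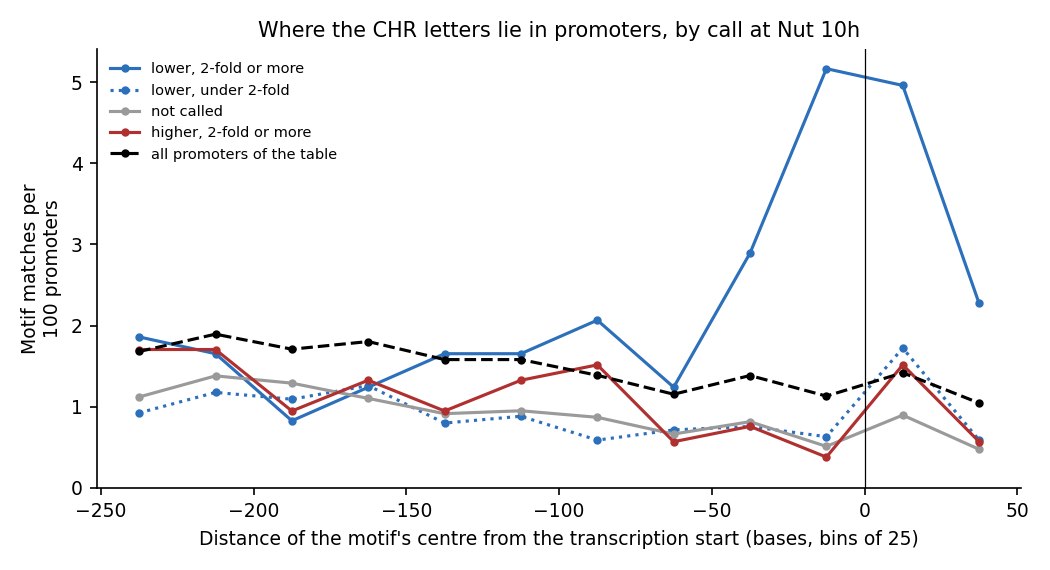
Matches of the 6-letter CHR motif per 100 promoters (y axis) in bins of 25 bases by distance from the transcription start (x axis), for genes grouped by their call at Nut 10h and for all promoters of the table. In genes downregulated at least 2-fold the line reaches 5.17 matches in the 25 bases before the start and 4.96 in the 25 bases after it, against 1.13 and 1.42 for all promoters.

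The following 7 promoters are of downregulated genes of the mitotic entry and the spindle, kinetochore and cytokinesis lists. They are printed from 60 bases before to 20 after the start. The CHR letters are in capitals, to show how close to the start they lie.
PLK1 (chr16:23678829-23678908, plus strand): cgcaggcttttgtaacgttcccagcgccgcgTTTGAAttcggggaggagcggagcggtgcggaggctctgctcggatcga
CDCA8 (chr1:37692456-37692535, plus strand): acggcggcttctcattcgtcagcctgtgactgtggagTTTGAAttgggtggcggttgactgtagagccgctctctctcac
ESPL1 (chr12:53268239-53268318, plus strand): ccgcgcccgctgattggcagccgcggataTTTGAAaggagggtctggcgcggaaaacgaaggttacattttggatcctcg
CENPA (chr2:26785996-26786075, plus strand): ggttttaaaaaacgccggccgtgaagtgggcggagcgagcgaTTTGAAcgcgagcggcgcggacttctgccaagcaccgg
CKAP2L (chr2:112764590-112764669, minus strand): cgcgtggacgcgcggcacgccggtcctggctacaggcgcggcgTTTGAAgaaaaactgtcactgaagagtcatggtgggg
KIF18B (chr17:44947754-44947833, minus strand): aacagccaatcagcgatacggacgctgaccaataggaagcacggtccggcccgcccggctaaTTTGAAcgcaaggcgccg
PIF1 (chr15:64825628-64825707, minus strand): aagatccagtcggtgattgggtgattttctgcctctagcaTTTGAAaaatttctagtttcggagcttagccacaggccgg
In these windows the motif began 29 bases before the start in PLK1, 31 before it in ESPL1, 23 before it in CDCA8, 20 before it in PIF1, 18 before it in CENPA and 17 before it in CKAP2L. In KIF18B it began 2 bases after it. CDCA8 encodes borealin of the chromosomal passenger complex and fell from 3655 and 3436 to 1010.3 and 1005 counts, and ESPL1 encodes separase and fell from 5495 and 5443 to 1696 and 1557.

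Large falls were found among genes of the G1/S transition, where 23 of 24 were downregulated, 16 at least 2-fold, with a median of -1.21. E2F2 (chromosome 1, 23832930 to 23857725), an activating E2F transcription factor, fell from 2355 and 2335 to 402 and 313 counts (log2 fold change -2.71, SE 0.12, adjusted p = 2.31e-09, edgeR). E2F1 fell from 3836 and 3228 to 739 and 563 counts (log2 fold change -2.44), and CCNE2, a cyclin E that drives CDK2, from 416 and 436 to 57 and 87.5 (-2.55). CDC25A, the phosphatase that activates CDK2, fell from 1712 and 1709 to 321 and 322 counts. MYB, a transcription factor of proliferating cells, fell from 284 and 339 to 56.1 and 56.8.

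Of 57 replication genes, 53 were downregulated, 39 at least 2-fold, none was upregulated, and the median was -1.24. MCM10, which helps fire replication origins, fell from 2673 and 2639 to 515 and 529 counts (log2 fold change -2.35). CLSPN, the claspin of the replication checkpoint, fell from 1225 and 1386 to 285 and 271, and GINS2, a subunit of the replicative helicase, from 2996 and 2939 to 747 and 626. CHAF1A, a chromatin assembly factor, fell from 5379 and 4776 to 1317 and 1119 and ORC1, of the origin recognition complex, from 2252 and 2438 to 587 and 560.2. The 4 members not called were PCNA and the origin subunits ORC2, ORC4 and ORC5, named after their values were seen, with log2 fold changes from -0.12 to 0.19.

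Homologous recombination, Fanconi and checkpoint genes were downregulated in 35 of 41 cases, with a median of -1.12. EXO1, an exonuclease of end resection, fell from 1392 and 1489 to 245 and 288 counts (log2 fold change -2.44). BRCA2, a mediator of recombination, fell from 499 and 597 to 141 and 189.8. BARD1, the partner of BRCA1, fell from 485 and 539 to 97.6 and 169. The damage kinases ATM and ATR, picked after their values were seen, were not called, with log2 fold changes of 0.50 and -0.11.

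E2F letters (TTTGGCGC, TTTCGCGC, TTCGCGCC or TTGGCGCC, both strands, overlaps counted once per promoter) were found in 10.7% of promoters of genes downregulated at least 2-fold, 5.46% of those downregulated less, 3.50% of those not called, 3.03% of those upregulated at least 2-fold and 2.58% of all promoters. By list, the share was 31.3% of 32 promoters for the E2F and G1/S genes and 29.5% of 61 for the replication genes, against 10% of 50 for the homologous recombination, Fanconi and checkpoint genes, 8.82% of 34 for the mitotic entry genes and 7.94% of 63 for the spindle, kinetochore and cytokinesis genes. Promoters of 5 downregulated genes are printed for these letters, shown in capitals, over the same 80 bases.
E2F1 (chr20:33686366-33686445, minus strand): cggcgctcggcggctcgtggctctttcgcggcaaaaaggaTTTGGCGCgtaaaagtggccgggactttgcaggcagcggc
E2F2 (chr1:23531214-23531293, minus strand): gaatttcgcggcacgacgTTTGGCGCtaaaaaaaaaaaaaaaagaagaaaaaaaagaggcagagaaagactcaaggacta
CDC25A (chr3:48188398-48188477, minus strand): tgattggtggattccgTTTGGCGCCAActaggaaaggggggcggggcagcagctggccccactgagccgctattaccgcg
EXO1 (chr1:241848144-241848223, plus strand): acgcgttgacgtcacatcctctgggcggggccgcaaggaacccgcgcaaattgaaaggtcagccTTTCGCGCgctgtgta
ORC1 (chr1:52404404-52404483, minus strand): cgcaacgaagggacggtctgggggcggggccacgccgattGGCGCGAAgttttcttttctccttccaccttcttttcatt
In E2F1 and ORC1 the letters began 20 bases before the start, in E2F2 42 bases and in CDC25A 44 bases before it. In EXO1 they began 4 bases after it. CCAAT was found in 51.2% of promoters of genes downregulated at least 2-fold and 34.6% of all promoters, and GGGCGG in 75.2% and 45.0%. The latter share was 64.4% among genes not called, and the mean GC content of the windows was 64.8% for genes downregulated at least 2-fold, 63.3% for those not called and 57.5% for all promoters.

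Among the largest falls outside these lists, ZNF367, a zinc finger protein, had the largest, from 1517 and 1619.9 to 196 and 181 counts (log2 fold change -3.06, SE 0.11, adjusted p = 5.08e-10, edgeR). FAM111B, a protease, fell from 385 and 405 to 67.7 and 56.8 counts. DTL, the CDT2 substrate receptor that degrades CDT1, fell from 2189 and 2366 to 364 and 432, and TICRR (treslin), an origin firing factor, from 2349 and 2604 to 488 and 530.4. RIBC2 fell from 271 and 248 to 46.4 and 57.7.

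Of 24 tested inhibitors, pocket proteins and partners of cell cycle exit, 5 were upregulated (20.8%, beside 14.1% of all tested genes) and 14 downregulated (58.3%, beside 14.9%), with a median of -0.40. CDKN1A was the sole kinase inhibitor of the list with a rise above 2-fold. CDKN2B (p15) rose by 0.76 on the log2 scale, whereas CDKN2C (p18) fell from 866 and 729.7 to 198 and 139.6 counts (log2 fold change -2.24) and CDKN2D (p19) by 0.84 on the log2 scale. Of the pocket proteins, RBL1 (p107) fell from 790.5 and 834 to 267 and 332 counts. RB1, picked after its values were seen, was not called (log2 fold change 0.20). RBL2 was called upward, but not with the 4 libraries alone (log2 fold change 0.31, adjusted p = 0.0723, edgeR) or with DESeq2 (0.30, adjusted p = 0.058). Without Nut 0h replicate 1 the log2 fold change of RBL2 was 0.20. Cyclin D1 (CCND1) rose from 27355 and 27145 to 37106 and 37373 counts, and cyclin D3 (CCND3) fell from 3336 and 2915 to 1855 and 1585. Replication-dependent histones were scarcely covered, with 18 of 39 tested and sums of 1168 to 1277 reads in each library, of which 2 were downregulated (11.1%, beside 14.9% of all tested genes) and none was called downward without Nut 10h replicate 2.

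Counts in the lists outside the cell cycle are read against the 14.1% of all tested genes called upward and the 14.9% called downward. Of 25 genes of cholesterol synthesis, 16 were downregulated and 2 upregulated, with a median of -0.42. INSIG1, the sterol sensor partner that retains SCAP, fell from 2379 and 2310.1 to 609 and 632 counts (log2 fold change -1.92, adjusted p = 5.02e-09, edgeR). The isomerase IDI1 fell from 1443 and 1478 to 687 and 785 counts. ACAT2, which forms acetoacetyl-CoA, fell from 617 and 608 to 313 and 328 and overlaps SOD2 and TCP1. In contrast, the sterol reductase TM7SF2 rose from 1006 and 997 to 2461 and 2134 counts (log2 fold change 1.20).

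Of 26 genes of glycolysis and glucose transport, 2 were upregulated (7.69%, beside 14.1% of all tested genes) and 6 downregulated (23.1%, beside 14.9%), with a median of -0.08. With a GC-content offset 3 were upregulated and 10 downregulated, and without a low-count filter 10 were downregulated as well. The glucose transporter SLC2A1 rose from 8625 and 8254 to 14359 and 13696 counts (log2 fold change 0.73), which stood with SLC2A3 (1.37), named after its values were seen, as the upregulated members, and without Nut 10h replicate 2 only 1 was called. ALDOC, PFKFB4 and ENO2 fell by 0.52, 0.49 and 0.43 on the log2 scale. Of 60 nuclear genes of the respiratory chain, 1 was upregulated (1.67%) and 6 downregulated (10.0%), both shares below those of all tested genes, with a median of -0.03. None was called when Nut 0h replicate 1 was left out, and 2, both downregulated, when Nut 10h replicate 2 was. Leaving out other libraries moved the number upregulated between 0 and 3. Transcripts of the mitochondrial genome had positive log2 fold changes, 0.14 to 0.45, in all 13 genes and 5 were called, but none was called when Nut 0h replicate 1 was left out and 3 when Nut 10h replicate 2 was. The mitochondrial share of reads was 4.99% and 6.18% with vehicle and 6.45% and 7.06% with Nutlin-3a.

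Of 41 genes of ribosome biogenesis, 10 were downregulated and 1 was upregulated, with a median of -0.11. UBTF, the RNA polymerase I factor, fell from 8119 and 6937 to 5026 and 4762 counts and nucleolin (NCL) from 42864 and 40621 to 30401 and 30715. Without Nut 0h replicate 1, 6 genes of the list were downregulated, and with a GC-content offset 13 were downregulated and 4 upregulated. The upregulated member in the reported fit was MYC, a transcription factor of growth, with 24725 and 22017 counts with vehicle and 32258 and 28152 with Nutlin-3a (log2 fold change 0.37, adjusted p = 0.0162, edgeR). This call was lost on leaving out Nut 0h replicate 2 (0.29, adjusted p = 0.109) or Nut 10h replicate 1 (0.27, adjusted p = 0.107). Of 73 cytosolic ribosomal protein genes, 3 were upregulated and none was downregulated, with a median of 0.10, and the number upregulated was 0 with the 4 libraries alone and 9 with library size scaling. It was 1 when Nut 0h replicate 2 was left out, 0 with 1 gene downregulated when Nut 10h replicate 1 was, and 7 when Nut 10h replicate 2 was.

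Stress programmes were changed in part. Of 27 genes of the integrated stress response, 8 were upregulated and 1 downregulated, with a median of 0.10, and the downregulated member was not called when any of 3 libraries was left out. With a GC-content offset 11 were upregulated and 4 downregulated. ATF3, a stress transcription factor, rose from 732 and 617 to 2052 and 1646 counts (log2 fold change 1.45) and SESN2, a leucine sensor, from 1549 and 1268 to 4017 and 3569 (1.43). Both are reported p53 targets as well. ASNS, the asparagine synthetase, rose from 3008 and 3097 to 4527 and 5139, while ATF4 and DDIT3, the central factors of this response, were picked after their values were seen and were not called (log2 fold changes -0.14 and -0.21).

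Of 29 heat shock and endoplasmic reticulum chaperones, 9 were downregulated (31.0%, beside 14.9% of all tested genes) and 2 upregulated (6.90%, beside 14.1%), with a median of -0.18. The number downregulated was 14 both without a low-count filter and with a GC-content offset. HSPA8, the constitutive HSP70, fell from 101255 and 100314 to 62878 and 67855 counts, and its cofactor DNAJB1 from 13612 and 13133 to 8098 and 8048. HSPA1B fell from 7807 and 6558 to 3291 and 3578, but it is nearly identical to HSPA1A, so that the share of reads given to each is uncertain. HSPH1, a nucleotide exchange factor of HSP70, fell from 9988 and 10099.7 to 6154 and 6719.6 (log2 fold change -0.64). Without Nut 0h replicate 1, 6 members were downregulated and none upregulated, and without Nut 10h replicate 2 there was 1 upregulated member.

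Immediate early genes were divided, with 6 upregulated and 8 downregulated of 24 and a median of -0.13. FOS, a subunit of AP-1, fell from 3379 and 3190.0 to 1164 and 1741 counts (log2 fold change -1.18), and EGR1 from 15451 and 10325 to 7670.5 and 6166 (-0.90). The orphan receptor gene NR4A1 fell from 1734 and 1576 to 1062 and 901 counts. Of 15 ERK feedback inhibitors, 4 were upregulated and 1 downregulated, with a median of 0.12, and leaving out any 1 library ended the downward call. DUSP14, a phosphatase reported as a p53 target, rose from 1375 and 1268 to 2999.9 and 3012 counts and SPRY1 from 186 and 211 to 296 and 395.

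Within the Notch pathway, 7 of 22 genes were upregulated (31.8%, beside 14.1% of all tested genes) and 6 downregulated (27.3%, beside 14.9%). The receptor genes NOTCH1 and NOTCH3 rose, with NOTCH1 from 4627 and 4325 to 7536 and 6679.6 counts, NOTCH3 from 2296 and 2083 to 4008 and 3779, and so did the ligand JAG1, from 942 and 981 to 1287 and 1449. Known target genes of the pathway were downregulated in part, with HES1 from 892 and 707 to 501 and 502 counts, HES4 from 5300.3 and 3917 to 2794 and 1775 and NRARP from 2010.0 and 1594 to 1043 and 841. HES2 went against them, from 576 and 511 to 2227 and 1925 counts (log2 fold change 1.93), and HEY1, picked after its values were seen, was not called (-0.83). DLL4, another ligand, was called downward (log2 fold change -0.68, adjusted p = 0.0269, edgeR), but not when Nut 0h replicate 1 was left out (-0.50, adjusted p = 0.162) or Nut 10h replicate 1 (-0.44, adjusted p = 0.166).

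HCT116 cells are known to carry an activating β-catenin mutation. Wnt and intestinal stem cell genes were upregulated in 5 of 18 cases (27.8%, beside 14.1% of all tested genes) and downregulated in 4 (22.2%, beside 14.9%). With a GC-content offset 8 were upregulated. The Wnt antagonist DKK1 rose from 12492 and 12641 to 22497 and 21066 counts and the transcription factor SOX9 from 5378 and 4943 to 7195 and 7194. AXIN2, a feedback target of β-catenin, fell from 345 and 355 to 215 and 196 counts, and TCF7 from 2200.3 and 1986 to 1499 and 1418. NOTUM, a Wnt deacylase, fell from 927 and 714 to 589.7 and 426.

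The interferon response list had 7 upregulated and 1 downregulated gene of 31, with a median of 0.20. Its member with the largest log2 fold change (2.40) stands in the list of p53 DNA repair targets as well. The number downregulated was larger when Nut 10h replicate 1 was left out. TLR3, the sensor of double-stranded RNA, rose from 79.2 and 69.5 to 343 and 384 counts (log2 fold change 2.29) and TAP1, the peptide transporter of antigen presentation, from 1879 and 1649 to 4970.3 and 4530.0 (1.43). TAP1 overlaps PSMB9. STAT2 rose from 1188 and 1273 to 1807 and 1926, and OAS3, the downregulated member, fell from 2872 and 2982 to 1778 and 1674 (log2 fold change -0.76). ISG15, IFIT1 and MX1, common readouts of interferon that were picked after their values were seen, were not called, with log2 fold changes of 0.33, -0.39 and 0.90.

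Of 22 tested NF-κB targets, cytokines and chemokines, 6 were upregulated and none downregulated, with a median of 0.16, and 1 was called downward on leaving out Nut 0h replicate 2 or Nut 10h replicate 1. Besides GDF15, BIRC3, an inhibitor of apoptosis, rose from 117 and 119 to 302 and 345 counts, the growth factor CSF1 from 232 and 210.4 to 652 and 535 and the cytokine LIF from 5790.2 and 5789 to 9220.2 and 8826. IL6, IL1A, IL1B and TNF had too few reads to be tested. NFKBIA, which was picked after its values were seen and is the feedback inhibitor of NF-κB, was not called (log2 fold change -0.16).

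Integrins, laminins and matrix genes were upregulated in 19 of 30 cases and downregulated in 2, with a median of 0.43. LAMA3, the alpha chain of laminin 332, rose from 156 and 192 to 931 and 910.1 counts (log2 fold change 2.41). COL17A1, a collagen of hemidesmosomes, rose from 112 and 69.5 to 351 and 328. The heparan sulphate proteoglycans SDC4 and HSPG2 rose from 3482 and 3363 to 7188 and 7231 and from 2780.1 and 2850.1 to 5649 and 5071 counts. The downregulated members, SERPINE2 and TIMP2, had log2 fold changes of -0.29 and -0.28. No member was downregulated on leaving out Nut 0h replicate 1 or Nut 10h replicate 2, and leaving out either of the other libraries left 1.

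Semaphorins, plexins and ephrins, the ligands and receptors of cell guidance, were upregulated in 14 and downregulated in 5 of 37 cases, with a median of 0.19. The B-class plexins rose, PLXNB3 from 239.6 and 238 to 1991 and 1762 counts (log2 fold change 2.97) and PLXNB1 from 1465 and 1495 to 3834 and 3749. PLXNB2, named after its values were seen, rose by 0.65 on the log2 scale and stands in the p53 target lists as well. EFNB1 rose from 1344 and 1167 to 4576 and 4102 counts, whereas EFNB2 fell from 1630.2 and 1641 to 965 and 935. The secreted SEMA3B rose from 559.5 and 578 to 1556 and 1359 counts. With a GC-content offset 20 members were upregulated, and without Nut 0h replicate 1 only 2 were downregulated.

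Epithelial junctions had 7 upregulated and 1 downregulated gene of 22, with a median of 0.09, and 3 upregulated genes with the 4 libraries alone. Leaving out Nut 0h replicate 1 or Nut 10h replicate 2 gave 4. The number downregulated was 0 without Nut 0h replicate 1 and with the 4 libraries alone, and 3 with a filter of 1 CPM or a GC-content offset. CLDN4, a claudin of tight junctions, rose from 8914 and 8030.0 to 14763 and 12709.7 counts (log2 fold change 0.70, adjusted p = 0.000154, edgeR). Lysosome and autophagy genes had 14 upregulated and 5 downregulated members of 45, with a median of 0.06. GABARAPL1, an autophagosome protein of the ATG8 family, rose from 629 and 605 to 1147 and 1173 counts and WIPI1 from 477 and 490.2 to 725 and 663. Leaving out Nut 0h replicate 2 gave 9 upregulated members, while the number downregulated was 1 without Nut 0h replicate 1 and 2 when Nut 10h replicate 2 was left out.

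Calls were also counted by gene class. Of 13054 protein-coding genes, 15% were upregulated and 17.7% downregulated, beside 14.1% and 14.9% of all tested genes. The shares were 8.35% and 4.36% of 1833 long non-coding RNAs, and 16.1% and 3.81% of 1077 pseudogenes. The difference between these classes was not tested. Of 9 tested non-coding RNAs linked to p53, 5 were upregulated and 1 downregulated. The latter, LINC00263 (log2 fold change -0.33, adjusted p = 0.027, edgeR), was not called on leaving out Nut 0h replicate 1 (adjusted p = 0.0756), Nut 0h replicate 2 (0.0769) or Nut 10h replicate 2 (0.117). NEAT1, the scaffold of paraspeckles, rose from 1608 and 2467 to 5233 and 5968 counts (log2 fold change 1.46, adjusted p = 1.64e-05, edgeR), and the imprinted H19 from 244 and 139 to 424 and 396 (1.10). PVT1, which lies beside MYC, rose from 2532 and 2286 to 3579 and 3148 counts.

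At the lower end of abundance, 6 genes had no reads in either Nut 0h library and at least 10 in both Nut 10h libraries. They were picked by these values, so no test is given. The cornified envelope genes LCE1C and LCE1F, of the epidermis, had 31 and 19 reads and 18 and 14 reads at Nut 10h. CLCA2, a chloride channel regulator, had 18 and 10 reads, and the antimicrobial RNASE7 had 10 and 22. The other 2 were the pseudogene AC139712.2, with 38 and 43 reads, and the non-coding RP11-611O2.1, with 24 and 19, which overlaps MDM2. With no reads, up to 3 counts per library are allowed, or 0.0846 and 0.0854 CPM in the vehicle libraries.

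The fixed markers of epithelial and other cell types were summed in each library. Of the 9 tested epithelial markers 2 were upregulated, 1 downregulated and 6 not called, and KRT19 rose from 48776 and 42009 to 90671 and 74799.7 counts. ELF3, the other upregulated marker, had an adjusted p of 0.0546 without Nut 0h replicate 1 (log2 fold change 0.34). EPCAM, the downregulated marker, had a log2 fold change of -0.32 and was not called on leaving out Nut 0h replicate 1 or Nut 10h replicate 1. The 12 epithelial markers summed to 208086 and 182465 reads with vehicle and 263748 and 229793 with Nutlin-3a. The 10 immune markers summed to 104 and 42 reads with vehicle and 14 and 26 with Nutlin-3a. Of these, LYZ (lysozyme) made 78 and 21 reads with vehicle and 3 and 1 with Nutlin-3a and was called downward. Together with 8 other genes of secretory epithelium, chosen after their values were seen, LYZ summed to 466 reads in Nut 0h replicate 1 and 150 in replicate 2, and the source of these reads was not tested. The 7 endothelial markers found in the table summed to 484 and 423 reads with vehicle and 198 and 265 with Nutlin-3a. Among them, ESAM fell from 427 and 366 to 154 and 154 counts, and KDR had 7 and 8 reads with vehicle and 8 and 66 with Nutlin-3a. The call of KDR as upregulated (log2 fold change 2.27, adjusted p = 0.0356, edgeR) rests on Nut 10h replicate 2, without which the log2 fold change was 0.13 (adjusted p = 0.931). The 10 fibroblast and muscle markers summed to 1552 and 1694 reads with vehicle and 2143 and 2168 with Nutlin-3a, most of them from COL1A1, which was not called. Of this list, ACTA2 rose from 66.7 and 75.1 to 631 and 692 counts (log2 fold change 3.22) and overlaps FAS, whose values rose in the same libraries. PDGFRB, with 16 and 12 reads with vehicle and 36 and 35 with Nutlin-3a, was also called upward (log2 fold change 1.33), but not without Nut 0h replicate 2 (1.12, adjusted p = 0.0881). The part of other cell types in any result was not tested.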

How the data were processed

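The authors isolated RNA from frozen pellets with a column kit and sequenced paired-end libraries. Per the labels, reads were trimmed with Trim Galore (0.6.6), aligned to GRCh37.p13 with STAR (2.7.0f) and summarised per gene with featureCounts of Subread (2.0.0). The deposited count table holds unnormalised read counts. The deposited table of comparisons, made by the authors with DESeq2 (1.36.0), holds log2 fold changes and p-values, which were not used. Only its pairs of gene symbol and identifier were taken. The settings for strand and for reads that match several genes are not given in the sources used here.

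Counts were filtered with filterByExpr, scaled by TMM and fitted over all 6 libraries with edgeR (4.0.16) in R (4.3.3), so that the Nut 1h libraries added to the estimate of the spread (3 residual degrees of freedom). The contrast was Nut 10h minus Nut 0h by the quasi-likelihood test with Benjamini-Hochberg adjustment over all 16565 genes, called at 0.05. The steps were tested on simulated data. Normalised counts are counts divided by TMM-scaled library size. Replicates are labelled biological, but separate cultures are not stated, so p-values measure the spread between these samples.

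The 36 gene lists were chosen with earlier results of these data known. Named genes were the 15 largest changes per direction among called genes with a mean of at least 100 normalised counts and groups that did not overlap, up to 5 called genes of that mean per list and direction, and fixed reference genes and markers. Some of these genes are not reported here. Of 1076 listed genes, 1071 had a row. Gene positions and overlaps are from GENCODE on GRCh37. Alternatives were DESeq2 (1.42.0), its size factors, library size scaling, the 4 libraries alone, other filters and thresholds, a GC-content offset, a replicate block and leaving out each library.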

Additional observations from a re-analysis of the deposited data

How the results depend on the processing

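The numbers of genes called, 2340 upward and 2470 downward, were 1421 and 1559 at an adjusted p of at most 0.01 and 620 and 515 with an absolute log2 fold change of at least 1. Leaving out 1 of the 4 libraries at a time gave 1755 to 2402 upward and 1735 to 2479 downward, where the lone library of a group is assumed to vary like the other groups. Without a low-count filter 2236 genes were called upward and 3094 downward, so that 42.0% of the calls were upward against 48.6%. A GC-content offset gave 3138 and 3350. The replicate block gave 2371 and 2522. Deviations of libraries with the same replicate number correlated with r of 0.45 between Nut 0h and Nut 10h, the groups compared. The r was -0.31 between Nut 0h and Nut 1h and -0.28 between Nut 1h and Nut 10h. As the signs differed, the numbers were not taken as pairs over the 6 libraries. The replicate block was fitted over all 6 libraries, and pairing within the 4 libraries of the comparison was not tested. No gene was called in opposite directions by any of the 12 alternative fits.

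Of 2754 alternative values of the 230 named genes, 2589 kept their direction and their side of the threshold, and 147 values of 51 genes lost the call. In 3 cases a gene that was not called gained a downward call. These were HPRT1 with the GC-content offset (log2 fold change -0.25) and ACTB with the GC-content offset (-0.21) and with no low-count filter (-0.28). The log2 fold changes of 6 genes that were not called changed sign in 15 cases. GAPDH was -0.074 to 0.13 on leaving out 1 library and -0.022 with no low-count filter. KRT18 was -0.12 to 0.16 on leaving out 1 library and -0.031 with no low-count filter. CLDN3 was -0.17 to 0.14 on leaving out 1 library and 0.00279 with library size only and 0.10 with the GC-content offset. CLDN7 was -0.13 to 0.048 on leaving out 1 library and 0.00126 with the GC-content offset. KRT20 was -0.87 to 0.49 on leaving out 1 library. CSF1R was -0.94 to 0.66 on leaving out 1 library. The cause was not tested. With 2 libraries per group and 3 residual degrees of freedom, genes with few reads have wide errors. Of the counts of called members in the 36 lists, by direction, 14 moved by over 1.5 times with the GC-content offset, 12 with the 4 libraries alone, 11 without a low-count filter and 13 to 15 on leaving out 1 library, against at most 4 under each of the other fits.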

Other observations

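The genes CEACAM6, AGR2, TFF2 and PIGR had at least 10 reads in both Nut 0h libraries and none in either Nut 10h library. A set of 9 genes of secretory and mucous epithelium, chosen after their values were seen (these 4 with LYZ, MUC5B, MUC5AC, MUC6 and TFF1), summed to 466 and 150 reads in the vehicle libraries, 18 and 2 with Nutlin-3a for 10 h, and 18 and 6 in the libraries of 1 h Nutlin-3a (Nut 1h). Nut 0h replicate 1 held more of each of the 9 than replicate 2. In Nut 10h replicate 2 alone, KDR had 66 reads, COL1A2 25 and TEK 10, against at most 8 reads of any of them in the other 3 libraries of the comparison. The source of these reads was not tested.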
